A study of Mus musculus with 8 samples.

Results

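The loci of 39 genes encoding Polycomb, trithorax and DNA methylation regulators were followed through 8 ATAC-seq libraries of mouse common myeloid progenitors, marrow cells upstream of the red cell, platelet, granulocyte and monocyte lineages. ATAC-seq uses a transposase to insert sequencing adapters into open DNA, and runs of inserted DNA are called as peaks. The genes were taken by name and grouped by the role of their products. A locus was the gene body with 10 kb added on each side, from RefSeq's gene table on GRCm38.p6, which is mm10. All 39 names were found among 21887 protein-coding loci, all 39 held a peak in each of the 8 libraries, and all 39 were among the 18458 loci that passed the filter for testing.

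Marrow of wild-type C57BL/6 mice was the source of the cells, and every population was sorted as KIT+ and CD16/32-. Between 40000 and 50000 cells were used per preparation, and each of the 4 populations had 2 libraries. The C2 cells were CD34bright and positive for CD41 and CD9. The other populations were CD34dim. Among them, C13 was CD41- CD9-, and the remaining populations were CD41+ CD9+ and differed in CD48, which was dim on C18 and bright on C10. The names are those of the sample titles. The series text lists partly different cluster names, so the sorted phenotype defines the groups here. Whether both libraries of a population came from different mice is not said in the labels, so they may be technical replicates. A p-value therefore rests on the spread between such libraries, pooled over the 4 populations and moderated by that of other loci. Sorted cells were assayed in bulk, so an opening present in fewer cells and a weaker opening in each cell cannot be told apart.

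Polycomb proteins work in complexes that keep genes silent. Polycomb repressive complex 2 (PRC2) methylates lysine 27 of histone H3 through EZH1 or EZH2, and Polycomb repressive complex 1 (PRC1) adds ubiquitin to histone H2A through RING1 or RNF2. The trithorax group counters them: the KMT2 and SETD1 enzymes methylate lysine 4 of histone H3 in COMPASS complexes, and remodellers such as SMARCA4 move nucleosomes. The DNMT enzymes methylate cytosine in CpG pairs and the TET enzymes oxidise that mark. Many of these genes, among them Asxl1, Dnmt3a, Tet2, Ezh2 and Kmt2a, are mutated or rearranged in blood cancers and are required for normal stem and progenitor cells. The values below describe how open the loci of these regulators were themselves, not where their products act.

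Upstream sequences were taken from RefSeq on GRCm38.p6 for 6 starts that the results turn on. Ezh2 and Rnf2 were the 2 loci that passed as lower in C13 in the F-Seq lists, Tet2 and Smarca4 had start peaks that ordered the populations in opposite ways, and Dnmt1 had a listed start with no peak, upstream of starts that were open in every library. Each run holds the 250 bases before the start, 5′ to 3′ on the gene's strand, and capitals mark CpG pairs. The runs lie at chr6:47595031-47595280 (Ezh2, minus strand), chr1:151500992-151501241 (Rnf2, minus), chr3:133544391-133544640 (Tet2, minus), chr9:21615919-21616168 (Smarca4, plus), chr9:20959889-20960138 (Dnmt1, the closed start, minus) and chr9:20952980-20953229 (Dnmt1, an open start, minus).
Ezh2: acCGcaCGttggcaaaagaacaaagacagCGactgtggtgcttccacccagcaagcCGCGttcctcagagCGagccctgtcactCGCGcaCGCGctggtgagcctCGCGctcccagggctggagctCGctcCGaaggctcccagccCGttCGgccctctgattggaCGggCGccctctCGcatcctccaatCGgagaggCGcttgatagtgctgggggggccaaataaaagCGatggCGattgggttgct
Rnf2: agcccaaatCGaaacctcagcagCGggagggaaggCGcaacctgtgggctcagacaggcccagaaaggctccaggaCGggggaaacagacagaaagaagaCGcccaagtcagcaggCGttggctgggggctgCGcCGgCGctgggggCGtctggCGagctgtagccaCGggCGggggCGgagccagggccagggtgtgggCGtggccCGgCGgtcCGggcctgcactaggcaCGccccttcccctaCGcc
Tet2: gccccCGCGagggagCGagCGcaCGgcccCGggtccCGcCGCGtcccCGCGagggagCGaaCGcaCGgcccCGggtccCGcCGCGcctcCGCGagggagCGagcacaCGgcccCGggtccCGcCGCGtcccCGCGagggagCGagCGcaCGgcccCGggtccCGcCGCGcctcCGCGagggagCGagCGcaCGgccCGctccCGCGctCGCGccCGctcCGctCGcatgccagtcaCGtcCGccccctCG
Smarca4: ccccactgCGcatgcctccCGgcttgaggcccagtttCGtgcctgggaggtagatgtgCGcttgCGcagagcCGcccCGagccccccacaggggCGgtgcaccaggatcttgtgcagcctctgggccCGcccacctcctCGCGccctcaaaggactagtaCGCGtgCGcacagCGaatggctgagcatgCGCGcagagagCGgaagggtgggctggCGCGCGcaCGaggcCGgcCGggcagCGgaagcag
Dnmt1, closed start: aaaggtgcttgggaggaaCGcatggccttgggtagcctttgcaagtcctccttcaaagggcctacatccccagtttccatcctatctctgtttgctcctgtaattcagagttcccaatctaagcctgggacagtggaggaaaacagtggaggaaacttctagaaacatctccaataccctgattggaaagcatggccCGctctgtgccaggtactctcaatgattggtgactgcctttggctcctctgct
Dnmt1, open start: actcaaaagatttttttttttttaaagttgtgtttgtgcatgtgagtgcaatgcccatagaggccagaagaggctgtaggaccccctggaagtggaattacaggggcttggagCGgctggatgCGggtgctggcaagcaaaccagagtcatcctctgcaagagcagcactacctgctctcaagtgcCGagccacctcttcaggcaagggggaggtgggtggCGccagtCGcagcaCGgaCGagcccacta
The Tet2 run held 51 CpG pairs, that of Smarca4 25, that of Ezh2 23 and that of Rnf2 20. The closed Dnmt1 start held 2 and the open one 7.

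Starts of the regulators were rich in CpG as a group. Over the 300 bases from 250 before to 50 after the start, the 35 genes with an entry in the RefSeq promoter table had a median of 30 CpG pairs and 67.33% G and C, against 13 pairs and 56.33% over 17492 genes. The motif GGGCGG, the core of the sites of SP and KLF factors, was found on either strand in 29 of the 35 (82.86%) and in 46.32% of all promoters. Motifs of blood factors occurred in few of the 35, and with so few genes these shares were not set apart from those of all promoters. The ETS core CCGGAA occurred in 6 of 35 (17.14%, against 19.11%). The RUNX motif TGTGGT occurred in 4 (11.43%, against 15.09%). The GATA motif AGATAA occurred in 1, Chd4 (2.857%, against 9.942%). The CCAAT box was found in 12 (34.29%, against 39.2%). All were searched on both strands, and a match is a description of letters and not evidence of binding. Cbx2, Setd1b, Pcgf1 and Kdm6b were not in that table.

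A larger share of the regulators' first starts was open in all 8 libraries than of the first starts of all genes. A peak overlapped the 2 kb window around the first listed start in all 8 libraries for 29 of 35 regulators (82.86%), against 54.8% of 17492 genes. The exceptions were Dnmt1, with no peak in any library, and Kdm2b, Kdm5b, Dnmt3b, Cbx7 and Ring1, whose windows lacked one in 1 or 2 libraries. For Ring1, which encodes a ubiquitin ligase of PRC1, the 2 lists without a peak were both of C10. Some genes have several listed starts, 49 over the 35 genes, and 31 of the 35 had at least 1 that was open in all 8 libraries. For Dnmt1, the maintenance DNA methyltransferase, the starts at chr9:20952979 and chr9:20952623 were open in all 8 libraries, while that at chr9:20959888 had no peak from either caller. The start of Mtf2 at chr5:108078165 and that of Pcgf5 at chr19:36379067 also held no F-Seq peak, whereas other starts of both genes were open throughout. These 3 closed starts had 2, 2 and 5 CpG pairs in their 300 bases. The other 46 had from 11 to 57.

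How much of a locus lay under peaks was the main measure. It was scaled to the mean total peak length of the 8 libraries and is called covered DNA below, in kb. Averaged over the libraries, peaks covered a median of 7.85% of a regulator locus, against 7.99% over all tested loci. The least covered was Kdm1a, at 2.28%, and the most covered was Kdm6b, at 35.5%. Regulator loci were long, with a median of 63.6 kb against 37.2 kb. In 12 of the 39 no other gene lay in the extended locus. In the remaining loci peaks can belong to a neighbour, as at Kmt2d (Prkag1, Rhebl1 and Dhh), Ring1 (H2-Ke6, Slc39a7 and Rxrb) and Kdm6b (Cyb5d1, Naa38, Tmem88 and Dnah2), and Cbx2 and Cbx8 share one locus. Summed over the 39 loci, covered DNA was 309 and 310 kb in the C18 libraries, 326 and 285 kb in C2, 223 and 246 kb in C13 and 209 and 222 kb in C10. The plot of covered DNA by library shows each locus. In 18 of 39 loci (46.2%) all 4 libraries of C2 and C18 lay above all 4 of C13 and C10, a pattern chosen after its values were seen, and 17.2% of tested loci had it.

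**Figure D1:**
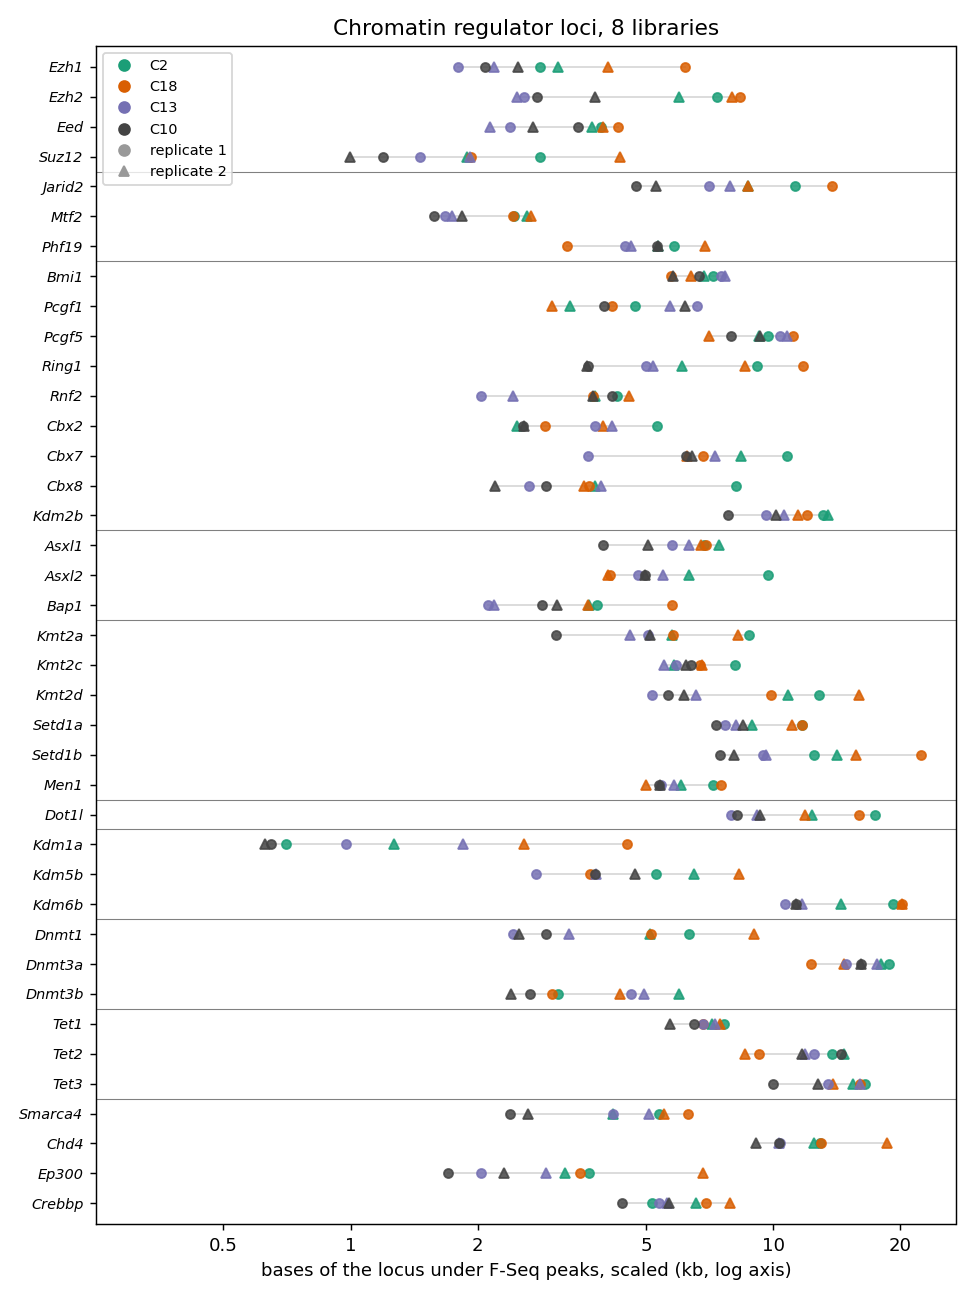
Covered DNA at the 39 regulator loci in each of the 8 libraries, in kb on a log axis; each point is 1 library, coloured by population and shaped by replicate, thin grey lines span the range of a gene and horizontal lines separate roles. C2 and C18 libraries lie to the right of C13 and C10 libraries in 18 of the 39 loci, and Tet2 and Dnmt3a have their lowest values in C18.

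The lists differed between populations in ways that bear on every value below. All 8 F-Seq lists held 100000 peaks. Those of C18 had the narrowest peaks (medians of 491 and 618 bases, against 691 to 800 elsewhere) and were multiplied by 1.43 and 1.13 in the scaling, where the other factors were 0.885 to 1.00. HOMER called 72379 and 83548 peaks in C18, 171712 and 196264 in C2, and 235812 to 260118 in C13 and C10. Median F-Seq width in C2 was 691 and 721 bases, against 762 to 800 in C13 and C10. A HOMER peak was present in 42.4% and 42.0% of F-Seq peaks in C18 and in 71.1% and 80.8% in C2. In C13 and C10 that share was 90.0% to 94.4%. The lists thus set C18 and C2 apart from C13 and C10, as covered DNA did at many loci and the start ranks below did. The part of peak width, list length and this share in the results was not tested. The loci of the sort markers Kit, Itga2b (CD41), Cd9, Cd34 and Cd48 held peaks in every library. At Cd34, covered DNA was 5.65 to 6.94 kb in C18, where it was lowest, against 11.4 to 12.8 kb in C13, 10.8 to 13.2 kb in the CD34bright C2 and 13.3 to 13.9 kb in C10. At Itga2b the CD41- population C13 had 2.71 to 2.83 kb and the CD41+ population C10 had 2.83 to 3.02 kb, while the CD41+ populations C18 and C2 had 4.22 to 5.25 kb and 3.50 to 5.55 kb.

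The comparison of C10 with C18 asks what differed between CD48bright and CD48dim cells that were otherwise sorted alike, and it held most of the calls. Covered DNA was lower in C10 at 13 of the 39 loci and higher at 1, Tet2 (limma, adjusted p under 0.05 over all tested loci). Among all tested loci, 14.2% were lower and 7.92% higher, 22.1% in all. The median log2 difference of the 39 was -0.52, against -0.15 over all tested loci and -0.23 over 15 housekeeping loci, of which 2 were lower. A negative difference was found at 33 of the 39, beside 10886 of 18458 tested loci and 12 of the 15 housekeeping loci. In 28 of 39 loci (71.8%) both C10 libraries lay below both C18 libraries, as in 39.8% of tested loci, and in 3 (Asxl2, Dnmt3a and Tet2) both lay above, as in 23.4%. The lower loci were Ezh1, Ezh2, Jarid2, Ring1, Asxl1, Kmt2d, Setd1b, Kdm1a, Kdm6b, Dnmt1, Smarca4, Chd4 and Ep300.

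Without scaling the median of all tested loci moved to 0.27, that of the 39 to -0.07 and that of the housekeeping loci to 0.22, and 6 regulators were lower and 2 higher. Over all loci 3484 were then higher and 502 lower, in place of 1462 and 2625. Scaling by the median of ratios gave 2085 higher and 1613 lower loci and 10 lower regulators. A test for any difference among the 4 populations called 12 of the 39 loci and 22.2% of tested loci. In the HOMER lists 20 of the 39 were lower and 1 higher (30.5% and 17.4% of tested loci), with a median of -0.70 against -0.23 over all loci. The housekeeping loci had a median of -1.16 there, below that of the regulators, and 12 of 15 were lower. Rescaled by the median of ratios, an alternative chosen after seeing the data, the HOMER lists had 9 regulators lower and 5 higher, while over all tested loci the split turned, to 12.6% lower and 26.2% higher. Their medians were then -0.27 for the 39, 0.18 for all loci and -0.68 for the housekeeping loci. Ring1, Kmt2d, Setd1b, Kdm6b, Chd4 and Ep300, 6 of the 13, were lower in the F-Seq lists and in the HOMER lists under both scalings. Without C10 replicate 1 no regulator was called and without its replicate 2 only 1 was, while leaving out either one of the C13 libraries left 9. The differences themselves kept their sign, and several kept their size: without C10 replicate 1 and replicate 2, Ring1 had -1.42 and -1.41, Setd1b -1.19 and -1.30 and Kdm6b -0.82 in both. The fit pools the spread over the populations, so a lone C10 library was assumed to vary like the others. At the 13 lower loci except Ezh2 and Asxl1, the C18 libraries lay further apart in covered DNA than the C10 libraries. At Setd1b the standard deviation was 4.74 kb in C18 and 0.43 kb in C10. The part of this in the lost calls was not tested. Loci of macrophage genes, markers of another cell type, had values in the other direction. All 6 of 6 had a positive difference and 1, Marco, passed, with a summed covered length of 12.1 to 13.02 kb in C10. In C18 the sum was 3.84 to 8.16 kb, and there C1qb and C1qc held no peak in replicate 1. The part of these loci in the result was not tested.

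**Figure D2:**
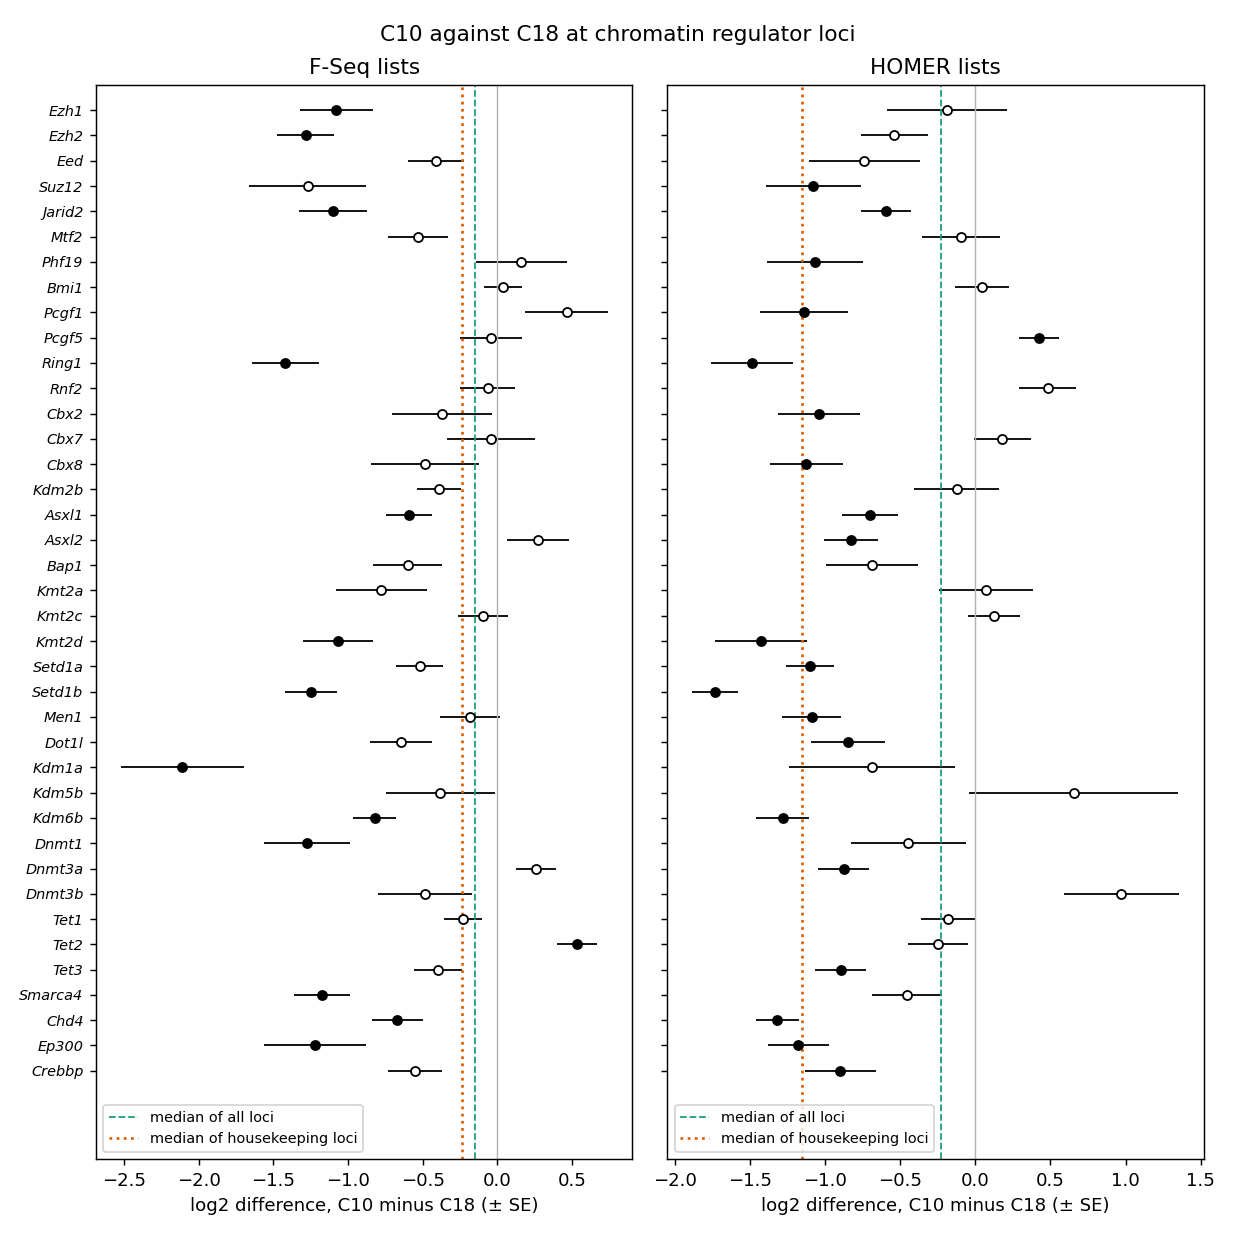
Log2 difference in covered DNA, C10 minus C18, at the 39 regulator loci from the F-Seq lists (left) and the HOMER lists (right); points are limma estimates, bars their standard errors, filled points have an adjusted p under 0.05, and vertical lines give the medians of all tested loci (dashed) and of 15 housekeeping loci (dotted). Most points lie left of the dashed line in both panels, Tet2 is the filled point at the right of the F-Seq panel, and in the HOMER panel the housekeeping median of -1.16 lies left of most regulators.

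Within PRC2, all 4 core loci had less covered DNA in C10 than in C18, and 2 passed the test in the F-Seq lists. At Ezh2, the main catalytic subunit of dividing cells, it was 8.32 and 7.997 kb in the C18 libraries, 7.38 and 5.97 kb in C2, 2.76 and 3.79 kb in C10 and 2.58 and 2.47 kb in C13. C18 and C2 thus lay above C10 and C13 with no overlap. The C10 minus C18 difference was -1.28 ± 0.19 on the log2 scale (SE, adjusted p = 0.00995, n = 2 libraries each, limma). Ezh1, the alternative catalytic subunit, had 6.20 and 4.07 kb in C18, 2.80 and 3.09 in C2, 2.08 and 2.49 kb in C10 and 1.80 and 2.18 kb in C13. C18 lay above all other libraries, and the difference was -1.08 ± 0.25 (adjusted p = 0.0244). Neither difference was called in the HOMER lists (-0.54 and -0.19). The scaffold Suz12 had 0.995 to 1.19 kb in C10 and 1.93 to 4.33 kb in C18, which did not pass (-1.27 ± 0.39, adjusted p = 0.057). The HOMER lists called Suz12 lower (-1.08), although not after rescaling by the median of ratios. Eed, which reads the mark that PRC2 makes, had a difference of -0.41 (adjusted p = 0.15).

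Among the PRC2 accessory genes, Jarid2, which helps to bring PRC2 to CpG-rich DNA, had the difference that passed in the F-Seq lists. It had 13.8 and 8.73 kb in C18, 11.2 and 8.72 in C2, 7.05 and 7.92 kb in C13 and 4.74 and 5.29 kb in C10. C10 was lowest in both libraries, with a difference from C18 of -1.10 ± 0.23 (adjusted p = 0.0197), and the HOMER lists also called it (-0.60, adjusted p = 0.0223), although not after rescaling by the median of ratios (-0.10). Dtnbp1 shares part of that locus. Mtf2, a DNA-binding partner of PRC2, had 1.57 to 1.83 kb in C10 against 2.42 to 2.67 kb in C18 and did not pass (adjusted p = 0.1). Phf19, a related partner, had 5.31 to 5.35 kb in C10 and a wide range in C18, from 3.25 to 6.89 kb (adjusted p = 0.72). The HOMER lists called Phf19 lower (-1.07), although not after rescaling.

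Of the PRC1 loci, 1 of 9 was lower in C10 in the F-Seq lists. Their median difference there, -0.06, was the nearest to 0 among the classes. That locus, Ring1, had 11.7 and 8.59 kb in C18, 9.17 and 6.09 in C2, 5.01 and 5.20 kb in C13 and 3.64 and 3.62 kb in C10. The order C18 and C2, then C13, then C10 had no overlap between these steps. The difference was -1.42 ± 0.22 (adjusted p = 0.0111) in the F-Seq lists and -1.49 (adjusted p = 0.00502) in the HOMER lists. Most of that DNA lay in the flanks, where 3 other genes are found. Rnf2, the second ubiquitin ligase, had a difference of -0.06, and Bmi1, Pcgf5 and Cbx7 lay between -0.04 and 0.04. Bmi1 and the PCGF genes encode the subunits that pair with RING1 or RNF2, and the CBX genes encode readers of the PRC2 mark. Kdm2b, which binds unmethylated CpG pairs and recruits a form of PRC1, had 7.80 and 10.2 kb in C10 and 12.0 and 11.4 kb in C18 (-0.39, adjusted p = 0.0938). Cbx2 and Cbx8 had differences of -0.37 and -0.48, and Pcgf1 had 0.47, and none of these passed in the F-Seq lists. The HOMER lists also called Pcgf1 (-1.14, the opposite sign), Cbx2 (-1.04) and Cbx8 (-1.13) lower, and Pcgf5 higher (0.42). After rescaling by the median of ratios they called Ring1 and Cbx8 lower and Pcgf5, Rnf2 and Cbx7 higher.

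Of the subunits that remove ubiquitin from histone H2A, Asxl1 was lower in C10. It had 3.96 and 5.06 kb in C10, 5.76 and 6.31 kb in C13, 6.93 and 6.76 kb in C18 and 6.87 and 7.43 kb in C2. C10 lay below all other libraries (-0.59 ± 0.15, adjusted p = 0.0355). The call was lost in 13 of 23 other settings, and it was kept in the HOMER lists (-0.70, adjusted p = 0.0187) but not after their rescaling (-0.21). Its paralog Asxl2 had 4.11 and 4.06 kb in C18, 4.97 and 4.97 kb in C10, 4.78 and 5.48 kb in C13 and 9.74 and 6.32 kb in C2. There C18 was lowest and C2 highest, and the C10 minus C18 difference did not pass (0.27, adjusted p = 0.363). In the HOMER lists that difference was -0.83 (adjusted p = 0.00919), the opposite sign, and it was not called after their rescaling. Bap1, the catalytic subunit, had 2.84 and 3.08 kb in C10 and 5.75 and 3.65 kb in C18 (-0.60, adjusted p = 0.101).

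In the F-Seq lists all 6 loci of the trithorax and COMPASS class had a negative difference, and 2 passed. In the HOMER lists 4 of the 6 had a negative difference, and these 4 were called. Setd1b, a methyltransferase of lysine 4, had 22.4 and 15.7 kb in C18, 12.5 and 14.2 in C2, 9.44 and 9.63 kb in C13 and 7.48 and 8.09 kb in C10. The 4 populations did not overlap, and the difference was -1.25 ± 0.17 (adjusted p = 0.00905). This was the smallest adjusted p among the 39 in this comparison. It was -1.73 (adjusted p = 0.00111) in the HOMER lists. Kmt2d, which acts at enhancers, had 9.86 and 16.0 kb in C18, 12.8 and 10.9 in C2, 5.17 and 6.56 kb in C13 and 5.65 and 6.15 kb in C10, a difference of -1.07 ± 0.24 (adjusted p = 0.0227). Its C13 and C10 libraries overlapped each other and lay below all of C2 and C18. Setd1a came next (-0.52, adjusted p = 0.0526). Kmt2a, the gene that is rearranged in many leukaemias, had 3.06 and 5.11 kb in C10 and 5.79 and 8.27 kb in C18 (-0.78 ± 0.30, adjusted p = 0.106). The differences of Men1, a partner of KMT2A, and of Kmt2c were -0.18 and -0.10. The HOMER lists called Setd1a (-1.10) and Men1 (-1.09) lower, before and after rescaling by the median of ratios. After that rescaling they also called Kmt2c, in the other direction, as higher in C10. Dot1l, which methylates lysine 79 of histone H3, had 8.20 and 9.29 kb in C10 and 15.9 and 11.9 kb in C18, and did not pass (-0.65, adjusted p = 0.0635). The HOMER lists called Dot1l lower (-0.85), although not after rescaling.

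Among the demethylases, Kdm1a and Kdm6b were lower in C10. Kdm1a, also called LSD1, had 4.52 and 2.57 kb in C18, 0.702 and 1.27 in C2, 0.975 and 1.85 kb in C13 and 0.649 and 0.627 kb in C10. Its log2 difference of -2.11 ± 0.41 (adjusted p = 0.0169) was the most negative of the 39, in the locus with the least covered DNA, and it was -0.69 without a call in the HOMER lists. Kdm6b, which removes methyl groups from lysine 27 and so opposes PRC2, had 20.2 and 20.2 kb in C18, 19.2 and 14.4 in C2, 10.7 and 11.7 kb in C13 and 11.3 and 11.3 kb in C10. C18 lay above all other libraries, and the difference was -0.82 ± 0.15 (adjusted p = 0.0136) and -1.28 (adjusted p = 0.00197) in the 2 kinds of list. Kdm5b, which removes methyl groups from lysine 4, varied in C18 from 3.69 to 8.31 kb and did not pass.

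The DNA methylation genes did not move together. Dnmt1 had 5.13 and 9.02 kb in C18, 6.32 and 5.12 in C2, 2.42 and 3.29 kb in C13 and 2.91 and 2.50 kb in C10. C2 and C18 lay above C13 and C10 without overlap, and the C10 minus C18 difference was -1.28 ± 0.29 (adjusted p = 0.0238), but it was not called in the HOMER lists (-0.45). The de novo methyltransferase Dnmt3a had 12.3 and 14.7 kb in C18, 16.1 and 16.2 kb in C10, 14.9 and 17.6 kb in C13 and 18.8 and 17.99 kb in C2. C18 was lowest and C2 highest, with a difference of 0.26 that did not pass (adjusted p = 0.187) and that was -0.88 (adjusted p = 0.00547) in the HOMER lists. That HOMER call was lost after rescaling by the median of ratios. For Dnmt3b, the other de novo enzyme, the difference was -0.48 (adjusted p = 0.293), and the HOMER lists gave 0.97 (adjusted p = 0.0709). After rescaling by the median of ratios the HOMER lists called Dnmt3b higher in C10.

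Tet2 was the 1 regulator that passed with more covered DNA in C10. It had 9.27 and 8.56 kb in C18, 14.5 and 11.7 kb in C10, 12.5 and 11.9 kb in C13 and 13.8 and 14.7 kb in C2. C18 lay below all other libraries, and C10 overlapped both C13 and C2. The difference was 0.53 ± 0.13 (adjusted p = 0.0308), and no other gene lies in that locus. Without scaling it was 0.99 (adjusted p = 0.00612). Of 23 other settings, 12 kept the call, 10 kept the sign without a call and 1 turned the sign. In the HOMER lists the sign turned (-0.25, adjusted p = 0.338). Tet3 (-0.40) and Tet1 (-0.23) did not pass in the F-Seq lists, with adjusted p of 0.113 and 0.232. In the F-Seq lists the 3 genes thus differed in direction within 1 family, although Tet2 against its paralogs was not tested. In the HOMER lists all 3 differences were negative, and Tet3 was called lower (-0.90), although not after rescaling by the median of ratios.

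Of the remodellers and acetyltransferases, 3 of 4 were lower in C10 in the F-Seq lists. Smarca4, the ATPase of the SWI/SNF complex also called BRG1, had 2.39 and 2.63 kb in C10, 4.17 and 5.09 kb in C13, 5.36 and 4.18 kb in C2 and 6.29 and 5.52 kb in C18. C10 lay below all other libraries, with a difference of -1.17 ± 0.19 from C18 (adjusted p = 0.0112). With the strongest 50000 peaks of each list the difference was 0.00503 with no call, and it was not called in the HOMER lists. Chd4, the ATPase of the NuRD complex, had 10.34 and 9.09 kb in C10 and 12.99 and 18.5 kb in C18 (-0.67 ± 0.17, adjusted p = 0.0348). C2, at 12.9 and 12.5 kb, lay between them, and C13, at 10.38 and 10.32 kb, overlapped C10, whose higher library had 10.34 kb. Ep300, a histone acetyltransferase, had 1.70 and 2.30 kb in C10, 2.03 and 2.91 kb in C13, 3.67 and 3.22 kb in C2 and 3.49 and 6.83 kb in C18 (-1.22 ± 0.34, adjusted p = 0.0431). C18 replicate 2 was its highest library. Both were also lower in the HOMER lists, by -1.32 and -1.18 (adjusted p = 0.00121 and 0.00391). The paralog Crebbp came close (-0.55, adjusted p = 0.0674). The HOMER lists called Crebbp lower (-0.90), although not after rescaling by the median of ratios.

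C13 was compared with the mean of C10 and C18, which asks what differed in CD34dim cells without CD41 and CD9. Covered DNA was lower in C13 at 2 of 39 loci, Ezh2 and Rnf2, and higher at none, where 3.74% of tested loci were lower and 3.11% higher, 6.85% in all. At Ezh2 the difference was -0.98 ± 0.17 (adjusted p = 0.0219). Its 2 C13 libraries (2.58 and 2.47 kb) were the lowest of the 8, but C10 (2.76 and 3.79 kb) was near them and C18 (8.32 and 7.997 kb) far above. Rnf2 had 2.04 and 2.43 kb in C13, 4.16 and 3.74 kb in C10, 3.76 and 4.55 in C18 and 4.28 and 3.78 kb in C2, so that C13 stood below 6 libraries that overlapped. Its difference was -0.81 ± 0.16 (adjusted p = 0.0317).

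Neither call held throughout. Without the C18 libraries, C13 against C10 gave -0.34 for Ezh2 (adjusted p = 0.368) and -0.77 for Rnf2 (adjusted p = 0.0524). The HOMER lists gave 0.12 for Rnf2, the opposite sign, and -0.14 for Ezh2, and their rescaling gave 0.36 and 0.13. With 1 C13 library left out neither was called, but the differences stayed at -1.005 and -0.95 for Ezh2 and at -0.69 and -0.92 for Rnf2 (without replicates 1 and 2). The median of the 39 was -0.14, against -0.06 over all loci and -0.16 over the housekeeping loci. Without scaling, 1378 loci were higher and 269 lower, in place of 574 and 691, and no regulator was called. Scaling by the median of ratios gave 775 higher and 574 lower loci, with Ezh2 and Rnf2 still called. The HOMER lists called 6 lower and 1 higher (13.8% and 9.59% of tested loci): Kmt2d, Setd1a, Setd1b, Men1, Kdm6b and Chd4 were lower and Pcgf5 was higher. After rescaling by the median of ratios they called 2 lower and 3 higher (3.95% and 13.9% of tested loci). The housekeeping loci had a median of -0.68 in the HOMER lists before that rescaling, with 8 of 15 lower, and of -0.41 after it, with 5 lower. Eed (2.39 and 2.14 kb in C13, 3.45 and 2.70 kb in C10, 4.30 and 3.95 in C18, 3.91 and 3.74 in C2) and Bap1 (2.11 and 2.19 kb in C13, 2.84 and 3.08 kb in C10) were also lowest in C13. They did not pass, with differences of -0.61 and -0.73 and adjusted p of 0.0677 and 0.0735. Marker loci of other cell types differed in both directions in C13. The 6 macrophage loci summed to 20.3 and 21.3 kb there against 3.84 to 13.02 kb elsewhere, with 2 higher and 6 of 6 differences positive. Among 6 loci of stroma and endothelium, 2 were higher and 6 of 6 differences were positive. The 8 lymphocyte loci summed to 46.7 and 46.9 kb against 29.8 to 36.6 kb, with 2 higher, but much of that sum was Ebf1 (19.7 and 17.9 kb) and Pax5 (9.002 and 10.5 kb), while Cd3g had 2.64 and 2.68 kb in C13 and 4.45 and 5.13 kb in C18. Erythroid loci went the other way, with 3 of 7 lower and a median of -0.65, as did megakaryocyte loci, with 2 of 6 lower and a median of -0.56. The part of such cells in these results was not tested. Both C13 libraries lay below both C10 libraries at 6 loci (15.4%, against 26.8% of tested loci) and above them at 14 (35.9%, against 32.8%).

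C2 was compared with the mean of the same C10 and C18 libraries, which asks what differed in CD34bright cells. No locus of 18458 passed (0% called), with 3068 (16.6%) at an unadjusted p under 0.05. Among these were 6 regulators, Cbx8, Kdm2b, Asxl1, Asxl2, Dnmt3a and Tet2, and the HOMER lists also called none. The median of the 39 was 0.27, against 0.06 over all loci and 0.13 over the housekeeping loci. A positive difference was found at 34 of the 39, beside 10473 of 18458 tested loci and 10 of 15 housekeeping loci. The smallest adjusted p was that of Asxl2 (0.78, adjusted p = 0.14). Kdm2b had 13.1 and 13.5 kb in C2, above all other libraries (0.37, adjusted p = 0.223). C10 and C18 lay far apart at many loci, with C2 between them or beside C18, and their mean hides that.

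Set against C10 alone, in a fit without the C18 libraries that was planned as an alternative, C2 had more covered DNA at 7 of 39 loci and less at none, where 5.58% of 18197 loci were higher. These were Ezh2, Jarid2, Ring1, Kmt2d, Setd1b, Dnmt1 and Smarca4, with differences from 0.76 (Setd1b, adjusted p = 0.0312) to 1.02 (Dnmt1, adjusted p = 0.0414). The value of Ezh2 was 0.99 ± 0.19 (adjusted p = 0.0411), and that of Kmt2d was 0.98 ± 0.15 (adjusted p = 0.0317). The median of the 39 was 0.49, that of all loci 0.10 and that of the housekeeping loci 0.27, of which 1 of 15 was higher. The comparison uses the same C10 libraries as that of C10 with C18.

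The height of the peak at the start was a second measure. F-Seq peaks were ranked by the authors' signal within each list of 100000, rank 1 being the strongest. The median rank of the regulators' start peaks was 8681.5 and 8033 in the C18 libraries and 16244.5 and 13087 in C2, but 36293 and 34713 in C13 and 33718.5 and 32937 in C10. Over all starts with a peak the medians were 8940 and 8527, 10931 and 10834, 18220 and 18581, and 16272 and 16131 in the same order. In C18 the regulators' starts were thus about as strong as other starts, and in C13 and C10 they ranked far below them. All 4 C13 and C10 libraries ranked the start below all 4 C2 and C18 libraries in 23 of the 29 regulators with a peak in all 8 (79.31%), a pattern chosen after its values were seen. It held for 38% of 9586 starts of all genes and for 3 of 10 housekeeping starts.

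Smarca4 had start ranks of 3937 and 2946 in C18, 11042 and 9467 in C2, but 50713 and 46886 in C13 and 40924 and 30147 in C10. Its start peak was present in every library, and its width of 1313 to 2382 bases did not follow that order. Ezh2 had one of the strongest starts, with ranks of 1949 and 2376 in C2, 4175 and 2301 in C18, 5846 and 5780 in C13 and 5042 and 5267 in C10. The reverse order, with C13 and C10 above C2 and C18, was found at 1 of the 29, Tet2, and at 2.6% of all starts. Its ranks were 2001 and 2166 in C13, 1411 and 1872 in C10, 2719 and 3024 in C2 and 2621 and 3811 in C18. The 5 regulators in neither order were Bmi1, Pcgf5, Phf19, Tet1 and Dnmt3a.

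**Figure D3:**
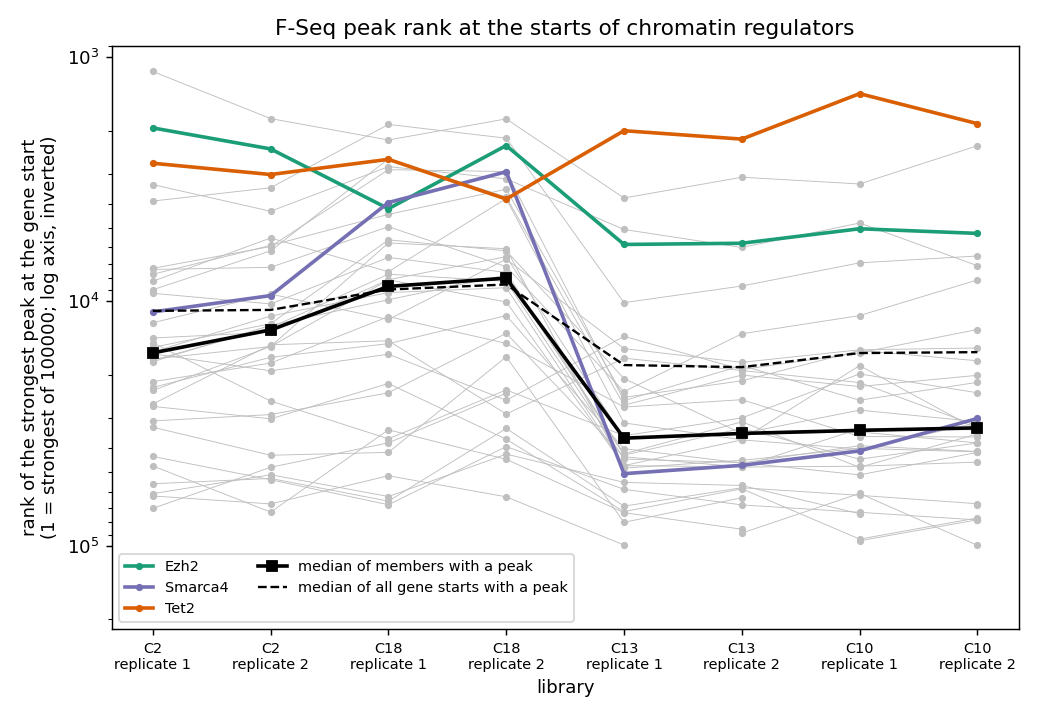
Rank of the strongest F-Seq peak at the first listed start in each library, on an inverted log axis so that stronger peaks are higher; grey lines are single regulators, coloured lines Ezh2, Smarca4 and Tet2, squares the median of the regulators with a peak and the dashed line the median of all gene starts with a peak. The median of the regulators runs beside that of all starts in C18 and lies below it in C13 and C10, while Tet2 is higher in C13 and C10 than in C2 and C18.

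Peaks of the 8 lists were merged into consensus regions to ask where in the loci the populations differed. The 39 loci held 547 regions, of which 118 (21.57%) were open in all 8 libraries, against 21.18% of the regions in all loci. Open in all 8 were 29 of 39 regions at starts (74.36%), 25.16% of those in flanks and 14.16% of those in gene bodies. Only the first listed start was used for this. Regions at the open starts of Dnmt1, and at the starts of Cbx2, Setd1b, Pcgf1 and Kdm6b, thus counted as gene body or flank. Regions open in both libraries of 1 population and in no other library were few: 17 for C13, 9 for C2, 6 for C18 and 0 for C10. Their shares of 3.108%, 1.645%, 1.097% and 0% stood beside 4.088%, 0.5543%, 1.394% and 0.8558% over all loci. HOMER peaks had the same pattern of libraries in 10 of the 17 C13 regions, in 3 of the 6 C18 regions and in none of the 9 C2 regions. Absent from both libraries of 1 population and open in all others were 10 regions for C18, 4 for C13, 1 for C10 and 0 for C2. These were 1.828%, 0.7313%, 0.1828% and 0% of the regulators' regions, beside 2.367%, 1.092%, 0.05002% and 0.1199% over all loci, so regions absent from C18 or C13 were no more frequent here than elsewhere.

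Ezh2 held 3 of the 6 regions seen in C18 alone. They lie close together in the gene body, 11.1 to 13 kb downstream of the start, and 2 of them, chr6:47581748-47582306 and chr6:47582523-47583059, also held HOMER peaks in both C18 libraries and in no other. A further region in the gene body, chr6:47564779-47566467, was open in C2, C18 and C10 and in neither C13 list of either caller. The region at the start was open in all 8 libraries, over 2.02 to 2.59 kb before scaling. Scaled covered DNA at the start was 1.98 to 2.92 kb over the 8 libraries. In the gene body it was 4.90 and 5.08 kb in C18, 2.63 and 1.88 in C2, 0.779 and 1.78 kb in C10 and 0 in both C13 libraries. The spread between populations at this locus thus lay mostly outside the start.

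Tet2 differed from Ezh2 in this respect. Its start region covered 4.86 to 5.69 kb before scaling in the C2, C13 and C10 libraries and 2.44 and 3.25 kb in C18. After scaling the start had 3.47 and 3.66 kb in C18 and 4.54 to 5.10 kb in the other libraries. The gene body regions chr3:133478471-133479618 and chr3:133518601-133519428, 65.3 and 25.4 kb downstream of the start, were open in C2, C13 and C10 and held no peak of either caller in C18. Dnmt3a had 3 of the 10 regions absent from C18, at chr12:3823176-3824206, chr12:3861328-3862752 and chr12:3896623-3897815, and Asxl2 had 2. None of the 10 held a HOMER peak in C18, whose HOMER lists are the shortest, and 5 of the 10 held HOMER peaks in all other libraries.

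**Figure D4:**
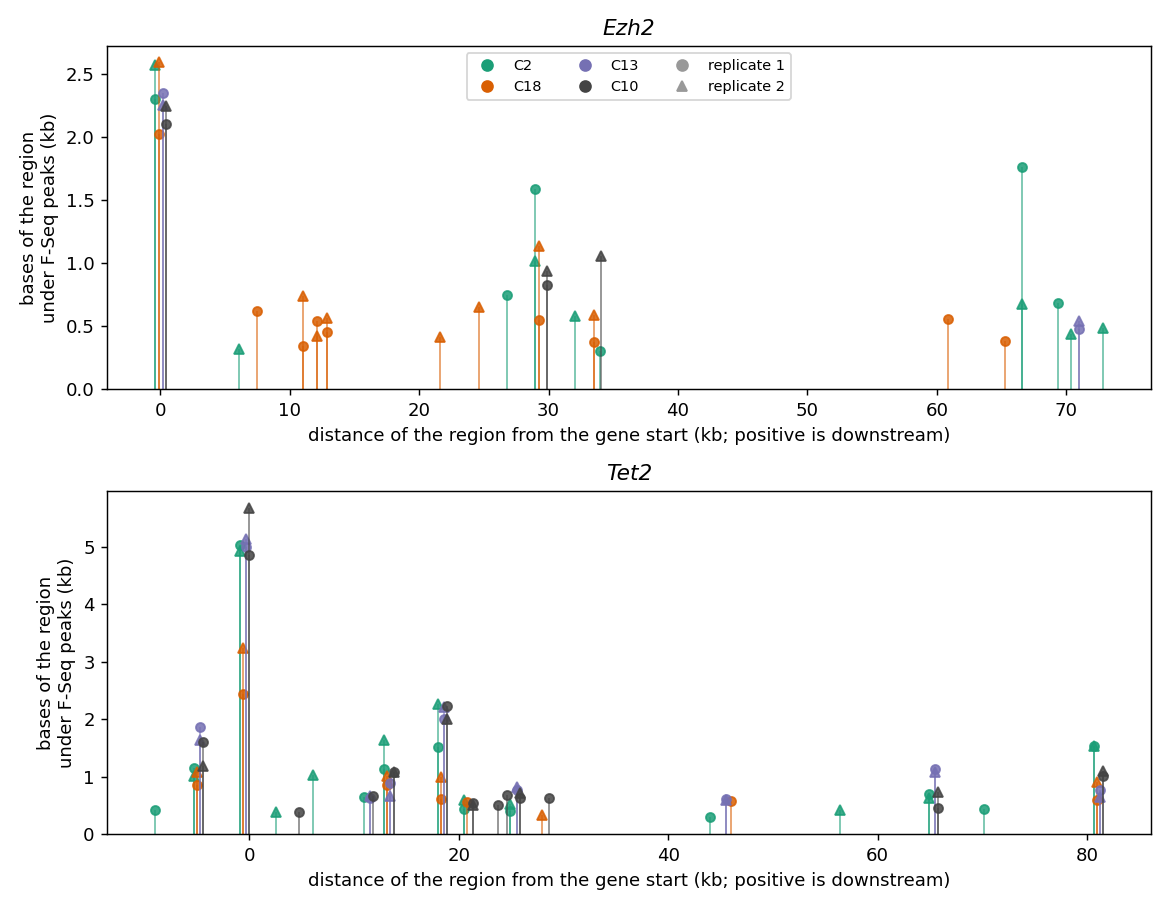
Bases under F-Seq peaks, before scaling, in each consensus region of the Ezh2 locus (top) and the Tet2 locus (bottom), against the distance of the region from the gene start in kb; each stem is 1 library, coloured by population and shaped by replicate, and populations are shifted slightly sideways for clarity. At Ezh2 the C18 stems between 11.1 and 13 kb have no counterpart in other populations, and at Tet2 the C18 stems at the start are the shortest.

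Other regions with a pattern by population were spread over the classes, and only part of them had the same pattern in both callers. Setd1b held a C18 region at chr5:123144252-123145660, near one end of the gene body, with HOMER peaks in both C18 libraries only. Smarca4 held 3 regions seen in C13 alone, and 2 of them, chr9:21627262-21627928 and chr9:21698597-21699469, had HOMER peaks in both C13 libraries and no other. Kmt2c held 2 such C13 regions, Jarid2, Crebbp, Kdm2b, Setd1a and Tet1 held 1 each, and Cbx2 and Cbx8 shared 1. Crebbp had 2 regions at its start, and 1 of them, chr16:4212068-4213618, was open in C2, C13 and C10 and held no peak of either caller in C18. The 2 kb window around that start nevertheless held peaks of both callers in all 8 libraries. Its strongest F-Seq peak ranked highest in C18, at 23659 and 13504, against 29057 to 47641 elsewhere. The 1 region absent from C10 alone was the start of Ring1, chr17:34023454-34025565, over 0.993 to 2.11 kb in the other libraries. Its peaks were weak, with ranks from 33549 to 85600, and HOMER found peaks there in 3 libraries, both of C18 and 1 of C13. Regions absent from C13 alone lay at Ezh2, Eed, Bap1 and Kmt2c, and no HOMER peak of C13 lay in them. Only 1 of these 4 held HOMER peaks in all libraries of the other populations. Exons could not be separated from introns with the gene table used.

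Other genes of these pathways, a list of 77, had a negative median in C10 against C18 (-0.41). In that comparison 19 were lower and 3 higher, where 14.2% and 7.92% of all tested loci were lower and higher. A negative difference was found at 60 of the 77 and at 10886 of 18458 tested loci. The counts moved with the scaling. Without it 1 was lower and 6 higher, beside 502 and 3484 of 18458 tested loci. The median was then 0.01, with 36 negative differences, beside 6031 over all tested loci. The median of ratios gave 8 lower and 3 higher, beside 1613 and 2085 of all tested loci. The HOMER lists gave 37 lower and 4 higher (30.5% and 17.4% of tested loci), and 13 and 9 after rescaling (12.6% and 26.2%). The lower ones included Arid1a, a SWI/SNF subunit (-1.15, adjusted p = 0.00615), Cbx6 (-1.15, adjusted p = 0.0137), Mta1 of the NuRD complex (-1.03, adjusted p = 0.0175) and Uhrf1, the partner of DNMT1 (-1.08, adjusted p = 0.0294). The higher ones were Sfmbt2 (1.24, adjusted p = 0.0469), Mllt3 (0.83, adjusted p = 0.0265) and Yaf2 (0.55, adjusted p = 0.0395). In C13 against C10 and C18, 3 of the 77 were lower and 0 higher, where 3.74% and 3.11% of tested loci were lower and higher. These 3 were Mbd2, a reader of methylated DNA (-1.03, adjusted p = 0.0135), Arid1a (-0.52, adjusted p = 0.0309) and Foxk1 (-0.56, adjusted p = 0.0302). None was called in C2 against C10 and C18.

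For each regulator with a call, the loci with the most similar profile were sought among those of similar mean, by the Euclidean distance of centred log2 values over the 8 libraries. The nearest to Ezh2 were Ywhag, Atpif1 and Trub2 (distances 0.40 to 0.43 among 11697 loci). Those nearest to Tet2 were Lyn, Jade1 and Lpcat4 (0.20 to 0.26 among 4719). Mean covered DNA at Lyn was lowest in C18 (15.6 kb), followed by C13 (20.01 kb), C10 (22.2 kb) and C2 (24.5 kb), the same order of populations as at Tet2. Dnmt1 and Kmt2d were among the 3 nearest of each other, at 0.33. Kdm6b lay nearest to Tapbp (0.18), Setd1b to Ppox (0.22), Rnf2 to Slc18a2 (0.29) and Ring1 to Rab3a (0.33). Kdm1a had no close match, its nearest locus, Brap, being at 0.72.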

How the data were processed

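The deposited files were 16 peak lists, 2 for each of 8 libraries, called per library on mm10 with Bowtie 1.0.0 and HOMER 1.0 named, per the submitters' processing notes. F-Seq's version was not given in the sources used here. As the authors deposited them, all F-Seq lists hold 100000 peaks with a height signal, from which ranks within each list were taken. The HOMER lists hold peaks of mostly 150 bases with unlabelled score columns as deposited, whose scores were not used. Read counts are not part of either kind of list, the depth is unknown, and no counting interval can be given.

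For each locus, bases under peaks were multiplied by the mean total peak length over that of the library and compared as log2(bases + 200), a scale that understates changes where few bases are covered. Loci covered in at least 2 libraries were fitted with limma 3.58.1 in R 4.3.3 (4 group means, 3 contrasts, eBayes with trend, Benjamini-Hochberg adjustment over all loci at 0.05), a procedure tested on simulated data. Errors beside log2 differences are limma's standard errors. Named were all 39 members, with every library's value where a locus was called or was among the 5 of smallest p in a contrast, and, of the other genes, those called. The members, gene lists and tests were chosen with earlier results of these data known. Alternatives were other scalings, callers, filters, extensions and pseudocounts, the number of peaks, a replicate block, and leaving out libraries. An overlap of at least 1 base with a peak made a consensus region or start window open in a library.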

Additional observations from a re-analysis of the deposited data

How the results depend on the processing

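With 2 libraries per population the number of calls moved when 1 was left out, while no called regulator's difference changed sign. Leaving out 1 library at a time, the number of regulators called ranged from 0 to 9 in C13 against C10 and C18 (2 with all libraries), from 0 to 0 in C2 against C10 and C18 (0), from 0 to 15 in C10 against C18 (14) and from 0 to 17 in any of the 4 populations (12). The numbers of all loci ranged from 1 to 3495 (1265 with all libraries), from 0 to 606 (0), from 0 to 5760 (4087) and from 0 to 6781 (4105) in the same order. The lone library of a population was then assumed to vary like the others. The C10 against C18 loci fell to 0 without C10 replicate 1 and to 389 without C10 replicate 2. The C13 calls fell to 14 loci and 1 locus without C13 replicates 1 and 2.

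In C13 against C10 and C18 the regulators called were 0 without scaling, 7 in the HOMER lists, 9 with F-Seq peaks that hold a HOMER peak, 7 with the strongest 50000 peaks, 1 with the number of peaks, 1 with gene bodies without extension and 0 without both C18 libraries. The loci called there were 4364 in the HOMER lists, 3631 with F-Seq peaks that hold a HOMER peak and 2029 with the strongest 50000 peaks. In C10 against C18 the regulators called were 8 without scaling, 1 with the number of peaks, 8 without a filter and 9 without extension. The loci called there were 8930 in the HOMER lists, 8072 with a HOMER peak in the F-Seq peak, 1232 with the number of peaks and 2223 without extension. In C2 against C10 and C18 the regulators called were 1 with the number of peaks and 7 without both C18 libraries. The loci called there were 373 with a HOMER peak in the F-Seq peak, 145 with the strongest 50000 peaks, 415 with the number of peaks, 15 with a pseudocount of 50 bases, 167 without a filter, 2 when covered in 6 libraries, 10 without extension, 130 with eBayes without trend and 1446 without both C18 libraries. In any of the 4 populations the regulators called were 5 without scaling, 2 with the number of peaks, 4 without a filter and 4 without extension. The loci called there were 8227 in the HOMER lists, 7211 with a HOMER peak in the F-Seq peak, 1371 with the number of peaks, 2324 without a filter and 2272 without extension. HOMER lists scaled by the median of ratios, an alternative chosen after seeing the data, called 5 regulators and 3325 loci in C13 against C10 and C18 and 7231 loci in C10 against C18.

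Signs turned in 6 cases. With those rescaled HOMER lists the differences were 0.26 for Ezh1 in C10 against C18, 0.13 for Ezh2 in C13 against C10 and C18 and 0.36 for Rnf2 there. The HOMER lists gave 0.12 for Rnf2 in C13 and -0.25 for Tet2 in C10 against C18. The strongest 50000 peaks gave 0.00503 for Smarca4 in C10 against C18. The causes were not tested. Ezh2, Ring1 and Setd1b in C10 against C18 kept direction and call in 20 of 23 alternatives each, and Asxl1, Chd4 and Ep300 in 10 of 23 each. Correlations of the replicate differences between populations ran from -0.01 to 0.12. Such values cannot show whether libraries of the same replicate number were prepared together. With the replicate block 1 regulator was called in C13 against C10 and C18, 15 in C10 against C18 and 7 in any of the 4 populations.

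Peak lists without read counts give no depth, so the absence of a peak is not a measured absence of open DNA. Loci of neighbours overlap, and regions can belong to either gene.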
